A study of Mus musculus with 6 samples.

Results

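Costimulatory and checkpoint ligands are the surface molecules by which a B cell signals to a T cell, and 10 such genes were examined here: *Cd86*, *Cd80*, *Cd40*, *Icosl*, *Cd274*, *Pdcd1lg2*, *Cd83*, *Tnfsf4*, *Tnfsf9* and *Cd70*. They were taken by symbol from a table of 23420 genes, and all 10 had a row. Genes whose counts summed to 10 or more across the 6 libraries were tested, 13682 in all, among them 9 of the 10. The study asked how the aryl hydrocarbon receptor (AhR), a ligand-activated transcription factor, acts in B cells. mRNA was sequenced from B cells of the spleen of 3 Ahr+/+ and 3 Ahr-/- mice, both labelled as C57Bl/6J and, by the study's methods, older than 8 weeks, with 1 library per mouse. The Ahr-/- mice were of the strain B6.129-Ahr tm1Bra/J, which carries a germline allele, so that every cell of the mouse, and not the B cell alone, lacked the receptor. Cells of both genotypes were treated alike, with α-IgM at 10 µg/ml, which crosslinks the B cell receptor, and IL-4 at 20 ng/ml for 8 h, and with FICZ, a tryptophan-derived AhR ligand, at 250 nM for the last 4 h. Each comparison is therefore one of genotypes in activated, ligand-treated cells, and resting cells or cells without FICZ were not analysed here.

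A T cell needs a signal through its antigen receptor and a second, costimulatory signal that the antigen-presenting cell provides. CD80 and CD86 give it through CD28 and are also bound by the inhibitory receptor CTLA-4, ICOS ligand acts through ICOS, and OX40 ligand, 4-1BB ligand and CD70 act through receptors of the TNF receptor family. PD-L1 and PD-L2 engage the inhibitory receptor PD-1, and CD40 is the receptor on the B cell through which the T cell answers. Activation of a B cell by antigen is known to raise CD86 and CD83, and IL-4 to raise CD86 and PD-L2.

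The libraries held 34402709 to 40065169 counts in Ahr+/+ and 22095096 to 53648787 in Ahr-/-, so that 3 counts, taken as the floor of detection, were worth 0.0555 to 0.134 CPM (counts scaled to a fixed library size). Values are given as normalized counts, in which each library was scaled to the mean library size after TMM scaling. The targeted gene, *Ahr*, stood at 13175 ± 682 normalized counts in Ahr+/+ and 9174 ± 472 in Ahr-/- (mean ± SD, n = 3 each, as for all values below), or 69.6% of the Ahr+/+ level (log2 fold change -0.52, SE 0.047, edgeR adjusted p = 7.06e-06), and the genotypes did not overlap. Reads of *Ahr* thus remained in the libraries labelled Ahr-/-. They were counted over the whole gene, which gives no level for the targeted part alone. The B cell genes *Cd79a* (log2 fold change 0.26, edgeR adjusted p = 0.00596), *Cd79b* (0.35, 5.9e-05) and *Ms4a1* (0.26, 0.00111) were detected in every library and were themselves higher in Ahr-/-. These rises are close in size to those of the higher ligands below, and their part in them was not tested.

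The ligands did not move as one group. Of the 10 genes, *Cd40*, *Cd274*, *Pdcd1lg2* and *Cd83* were higher in Ahr-/- B cells, *Cd86* and *Tnfsf9* were lower, *Cd80*, *Icosl* and *Tnfsf4* did not pass the test, and *Cd70* was too low to test. Thus 6 of the 9 tested genes were called at an adjusted p below 0.05 in edgeR's quasi-likelihood test, 4 higher and 2 lower, where 17.9% of all tested genes were called, 9.79% higher and 8.13% lower. Their median log2 fold change was 0.26, against 0.0021 over all tested genes. In 7 of the 9 genes the 3 libraries of one genotype all lay above the 3 of the other, as they did for 33.5% of all tested genes. The counts rested in part on a single library, since without Ahr-/- replicate 2 there were 4 calls, 2 higher (*Pdcd1lg2* and *Cd83*) and 2 lower. Calls over all genes fell too without that library, to 1664 of 13398 tested genes from 2453 of 13682.

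**Figure D1:**
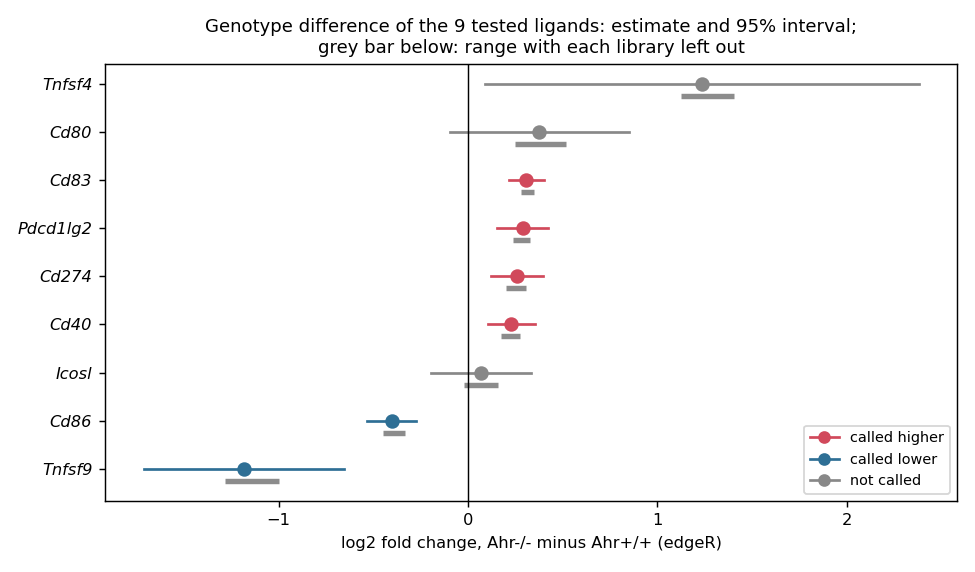
Log2 fold change of the 9 tested ligands, Ahr-/- against Ahr+/+, with the 95% confidence interval of the edgeR fit (n = 3 mice per genotype); the thick grey bar under each gene spans the values with each library left out in turn, and colour marks genes called higher (red) or lower (blue). The called genes lie on both sides of 0, from -1.18 for *Tnfsf9* to 0.31 for *Cd83*, and *Tnfsf4*, the gene of the fewest counts, has the widest interval.

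Of the 2 ligands of CD28 and CTLA-4, *Cd86* fell and *Cd80* did not pass the test. *Cd86* (mm10, chr16:36603869-36666081, minus strand) had 4295, 3981 and 3952 normalized counts in Ahr+/+ and 3316, 3178 and 2786 in Ahr-/-. Every Ahr-/- library lay below every Ahr+/+ library. The mean fell from 4076 ± 190 to 3093 ± 275 and so fell by 24.1% (log2 fold change -0.40, SE 0.059, 95% interval -0.53 to -0.27, edgeR adjusted p = 0.000416). The paper, for its part, reported CD86, MHC II and CD69 unaltered in Ahr-/- B cells after activation with α-IgM. The RNA level given here does not show the amount of CD86 at the cell surface. *Cd80* (chr16:38455561-38496335, plus strand) had 29 to 40 raw counts per library in Ahr+/+ and 30 to 61 in Ahr-/-. Its normalized counts were 28.2, 40.2 and 33.7 in Ahr+/+ and 51.5, 43.4 and 40.1 in Ahr-/-, so that the lowest Ahr-/- library lay just under the highest Ahr+/+ library. The log2 fold change of *Cd80* was 0.38 (SE 0.217, edgeR adjusted p = 0.277), and its interval, -0.09 to 0.85, holds both no change and a rise.

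The balance of the 2 ligands could be read within each library, where the scaling between libraries drops out. For every 100 counts of *Cd86* there were 0.656, 1.01 and 0.853 counts of *Cd80* in Ahr+/+ and 1.55, 1.36 and 1.44 in Ahr-/-. *Cd80* counts thus were about 1 in 100 of *Cd86* counts or fewer in Ahr+/+, and more than that in every Ahr-/- library. The log2 ratio was -6.90 ± 0.311 in Ahr+/+ and -6.09 ± 0.0996 in Ahr-/-, a difference of 0.81 that stayed between 0.64 and 0.95 when any 1 library was left out. The two-sided exact permutation test gave p = 0.1, the smallest that 3 against 3 libraries allow, so the design could not place this difference below 0.05.

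**Figure D2:**
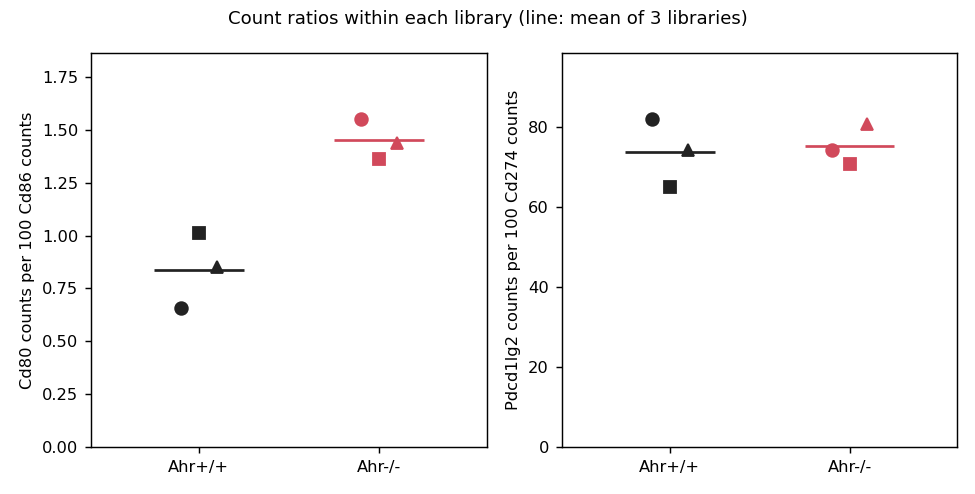
Counts of *Cd80* per 100 counts of *Cd86* and of *Pdcd1lg2* per 100 counts of *Cd274* in each library of Ahr+/+ and Ahr-/- B cells; points are libraries and lines are means. The *Cd80* to *Cd86* ratio separates the genotypes, at 0.656 to 1.01 against 1.36 to 1.55, and the *Pdcd1lg2* to *Cd274* ratio does not.

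*Cd83*, a marker of activated B cells and mature dendritic cells that keeps MHC class II and CD86 at the cell surface, was the most abundant of the ligands and rose in Ahr-/- cells. *Cd83* (chr13:43784775-43803132, plus strand) had 57533, 52065 and 53233 normalized counts in Ahr+/+ and 67798, 64660 and 69147 in Ahr-/-. The genotypes did not overlap, and the lowest Ahr-/- library exceeded the highest Ahr+/+ library. The means were 54277 ± 2879 and 67202 ± 2302 (log2 fold change 0.31, SE 0.042, edgeR adjusted p = 0.000217), the lowest p-value among the ligands. *Cd83* and *Cd86* therefore changed in opposite directions in the same libraries. Over the 6 libraries, the tested genes of at least 50 normalized counts whose level followed that of *Cd83* most closely were *Ankrd33b* (Pearson r = 0.998), *Plekhf2* (0.994), *Icam2* (0.994), *Rexo2* (0.994) and *Fam83g* (0.992). These correlations are taken over libraries that form 2 genotype groups, and describe likeness only.

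*Cd40*, the receptor through which helper T cells activate B cells, was modestly higher in Ahr-/- cells. *Cd40* (chr2:165055627-165072948, plus strand) had 1602, 1546 and 1404 normalized counts in Ahr+/+ and 1836, 1847 and 1665 in Ahr-/-. The groups did not overlap, although the gap between them was small beside the spread within Ahr+/+. The means were 1517 ± 102 and 1783 ± 102 (log2 fold change 0.23, SE 0.057, 95% interval 0.10 to 0.35, edgeR adjusted p = 0.0145). This call was lost without Ahr+/+ replicate 3 (log2 fold change 0.18, edgeR adjusted p = 0.0687) and without Ahr-/- replicate 2 (0.20, edgeR adjusted p = 0.0765). *Icosl*, which encodes the ligand of ICOS on follicular helper T cells (chr10:78069302-78083913, plus strand), had 191, 211 and 164 normalized counts in Ahr+/+ and 196, 218 and 181 in Ahr-/-. These libraries interleave. The log2 fold change of *Icosl* was 0.07 (SE 0.121, edgeR adjusted p = 0.757), with an interval from -0.19 to 0.33, and its sign turned without Ahr+/+ replicate 3 (-0.0203) and without Ahr-/- replicate 2 (-0.0158).

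**Figure D3:**
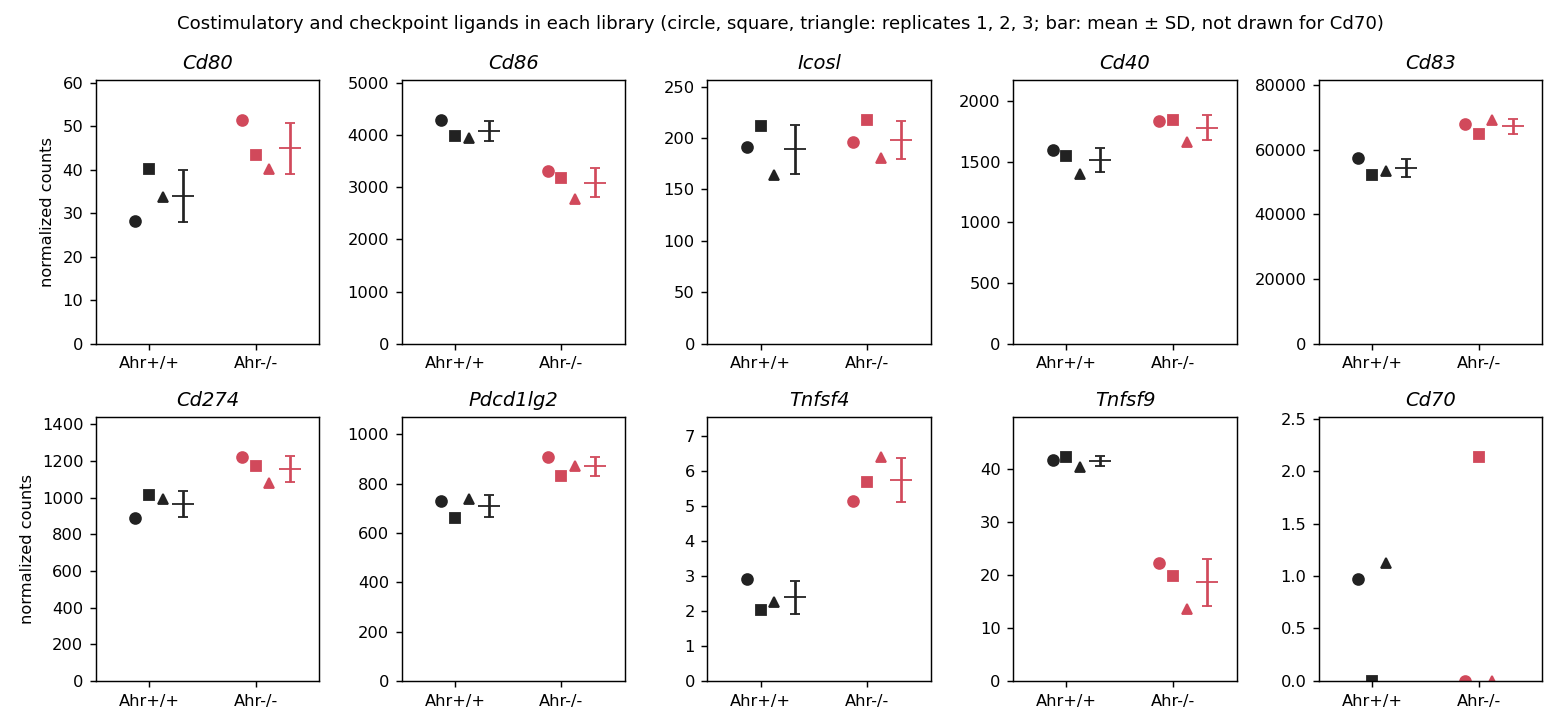
Normalized counts of each of the 10 ligands in the 3 Ahr+/+ and 3 Ahr-/- libraries; points are libraries, and the bar gives the mean ± SD (not drawn for *Cd70*). *Cd86* and *Tnfsf9* are lower in all 3 Ahr-/- libraries, *Cd40*, *Cd274*, *Pdcd1lg2* and *Cd83* are higher in all 3, and *Cd80* and *Icosl* overlap.

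The genes of both PD-1 ligands were higher in Ahr-/- cells, by a similar amount. They are neighbours on the plus strand of chromosome 19, *Cd274* (PD-L1) at chr19:29367455-29388095 and *Pdcd1lg2* (PD-L2) at chr19:29410919-29471161, 22.8 kb apart with no protein-coding gene between them. Because the pair moved together, the 250 bases before each RefSeq start ( GRCm38.p6, plus strand, 5′ to 3′) are shown, chr19:29367188-29367437 for *Cd274* and chr19:29410669-29410918 for *Pdcd1lg2*. Capitals mark matches, on either strand, to the core of the AhR response element (GCGTG) in *Cd274*, and to a κB site and then to the STAT6 site TTCNNNNGAA in *Pdcd1lg2*.

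Cd274: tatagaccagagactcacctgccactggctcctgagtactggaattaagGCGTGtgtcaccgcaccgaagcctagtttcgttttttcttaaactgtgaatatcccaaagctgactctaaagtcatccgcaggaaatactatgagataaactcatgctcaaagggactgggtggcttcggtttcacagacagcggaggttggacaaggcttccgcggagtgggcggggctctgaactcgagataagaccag
Pdcd1lg2: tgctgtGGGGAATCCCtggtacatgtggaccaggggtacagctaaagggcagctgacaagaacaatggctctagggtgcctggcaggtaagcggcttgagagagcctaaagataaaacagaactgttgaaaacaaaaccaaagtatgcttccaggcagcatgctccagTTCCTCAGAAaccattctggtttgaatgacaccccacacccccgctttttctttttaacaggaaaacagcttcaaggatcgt

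The AhR core of *Cd274* starts 201 bases before the RefSeq start of the gene, and 28.2% of the 32851 promoter windows of the same length hold that core. In *Pdcd1lg2* the STAT6 site, the sequence bound by the factor that IL-4 activates, starts 82 bases before its RefSeq start and occurs in 5.85% of windows, and the κB site starts 244 bases before it and occurs in 3.9%. The windows of *Cd80* and *Icosl* were the only others that could be read among the 10 ligands. That of *Cd80* (chr16:38458683-38458932) held an AP-1 site (TGANTCA) 42 bases before its RefSeq start, found in 6.75% of windows. That of *Icosl* (chr10:78069118-78069367) held none of the 4 motifs. For both genes the RefSeq start lies downstream of the GENCODE start. The *Cd80* window thus lies inside the gene span given above, and the *Icosl* window runs past the start of its span. No 2 motifs overlapped, and a match describes letters, not binding.

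*Cd274* had 887, 1015 and 994 normalized counts in Ahr+/+ and 1220, 1174 and 1080 in Ahr-/-. All 3 Ahr-/- libraries were above the Ahr+/+ libraries. The means were 965 ± 68.8 and 1158 ± 71.2 (log2 fold change 0.26, SE 0.064, 95% interval 0.12 to 0.40, edgeR adjusted p = 0.0134). The call of *Cd274* was lost without Ahr+/+ replicate 1 (log2 fold change 0.20, edgeR adjusted p = 0.0553) and without Ahr-/- replicate 2 (0.25, edgeR adjusted p = 0.0586). *Pdcd1lg2* had 728, 660 and 739 normalized counts in Ahr+/+ and 906, 830 and 873 in Ahr-/-. Again the groups did not overlap. The means were 709 ± 42.7 and 869 ± 38.4 (log2 fold change 0.29, SE 0.061, 95% interval 0.16 to 0.42, edgeR adjusted p = 0.00546), and the call held whichever library was left out.

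Within a library there were 82.0, 65.0 and 74.4 counts of *Pdcd1lg2* per 100 of *Cd274* in Ahr+/+ and 74.3, 70.7 and 80.8 in Ahr-/-. The proportion of the PD-1 ligands was not detectably different, the log2 ratio differing by 0.03 (two-sided exact permutation test, p = 1). Whether the authors' counting used strand is not given in the sources used here. Exons of *Cd274* overlap the antisense gene *AC119228.1*, which was not among the counted genes. Those of *Tnfsf9* overlap the lincRNA *Gm11110*, which was counted. Reads of these pairs might thus not be told apart.

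Of the 3 ligands of the TNF family, *Tnfsf9* showed the largest change among the called genes. *Tnfsf9*, which encodes 4-1BB ligand (chr17:57105325-57107757, plus strand), had 43, 42 and 36 raw counts in Ahr+/+ and 13, 28 and 15 in Ahr-/-. Its normalized counts were 41.8, 42.3 and 40.4 in Ahr+/+ and 22.3, 19.9 and 13.7 in Ahr-/-. The Ahr+/+ libraries were nearly equal, and every Ahr-/- library was well below them. The means of 41.5 ± 0.946 and 18.6 ± 4.46 gave a log2 fold change of -1.18 (SE 0.243, 95% interval -1.71 to -0.65, edgeR adjusted p = 0.00445). *Gm11110*, whose exons lie opposite, had 32, 40 and 22 raw counts in Ahr+/+ and 9, 29 and 27 in Ahr-/-, and its part in this result was not tested.

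*Tnfsf4* and *Cd70* were near the limit of detection. *Tnfsf4*, which encodes OX40 ligand (chr1:161395409-161418410, plus strand), had 3, 2 and 2 raw counts in Ahr+/+ and 3, 8 and 7 in Ahr-/-. Its normalized counts of 2.91, 2.01 and 2.25 in Ahr+/+ and 5.15, 5.69 and 6.38 in Ahr-/- did not overlap. Summed over libraries, 7 counts stood against 18, a ratio of 2.43 after scaling with a 95% counting interval of 0.968 to 6.88, and *Tnfsf4* was not called (edgeR adjusted p = 0.138). *Cd70* (chr17:57145997-57149777, minus strand) lies 38.2 kb from *Tnfsf9*, with no protein-coding gene between them. It had 1, 0 and 1 counts in Ahr+/+ and 0, 3 and 0 in Ahr-/-, at or below the floor of 3 counts in every library, so that a difference was not detectable at this depth.

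Per length, the ligands spanned a range from *Cd83* to genes that were barely detected. In CPM per kilobase of exon, *Cd83* stood at 549 ± 29.1 in Ahr+/+ and 680 ± 23.3 in Ahr-/-, and *Cd86*, the next, at 29.0 ± 1.35 and 22 ± 1.95. *Cd83* was thus 19.0 times the level of *Cd86* in Ahr+/+ and 30.9 times in Ahr-/-. With the length of the longest transcript in place of all exons, these ratios were 13.6 and 22.3. Below them came *Cd40* at 11.6 ± 0.78 and 13.6 ± 0.78, *Pdcd1lg2* at 9.40 ± 0.566 and 11.5 ± 0.509, and *Cd274* at 6.93 ± 0.494 and 8.32 ± 0.511. *Icosl* followed at 1.06 ± 0.134 and 1.11 ± 0.105, or 1.75 and 1.83 by the longest transcript. *Tnfsf9* went from 0.837 ± 0.0191 to 0.376 ± 0.0899 and *Cd80* stood at 0.239 ± 0.0425 and 0.316 ± 0.0411, so that these neighbours, apart in Ahr+/+, overlapped in Ahr-/-. *Tnfsf4* was at 0.0338 ± 0.00661 and 0.0811 ± 0.00874, and in Ahr+/+ it could not be told apart from *Cd70*. All other neighbours in this order kept their places in all 3 libraries of each genotype. These are levels of RNA in a whole sample, in which fewer cells of a type and less RNA per cell cannot be told apart.

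**Figure D4:**
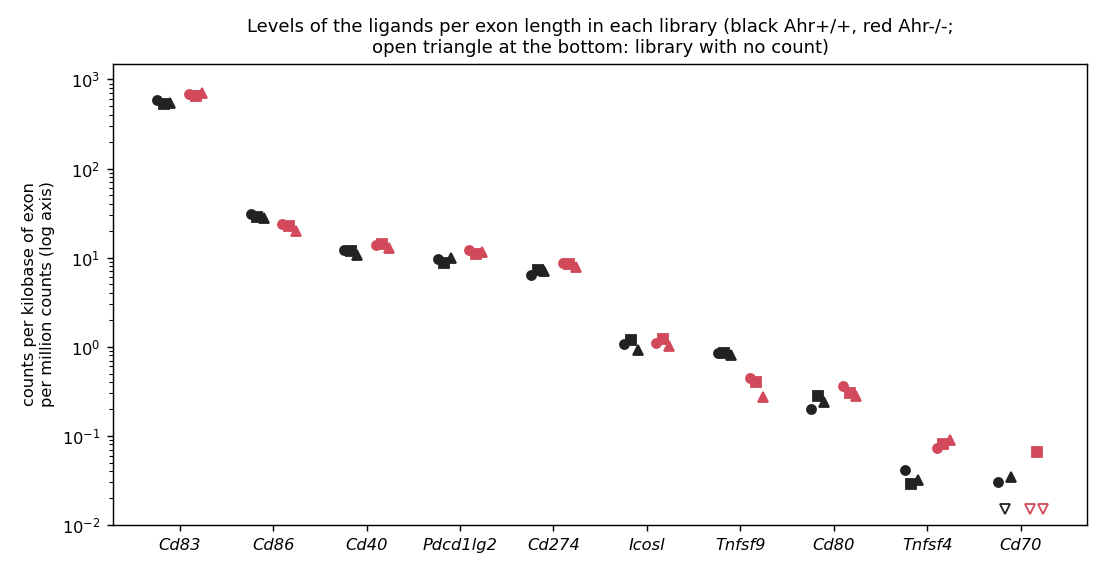
Level of each ligand in CPM per kilobase of exon, on a log axis, by library and genotype. *Cd83* lies far above the others, at 549 in Ahr+/+ and 680 in Ahr-/- on average, and *Tnfsf4* and *Cd70* lie lowest.

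The receptors of these ligands belong mainly to T cells, and several were detected at low levels in the B cell libraries. Of 9 receptors listed, 8 were tested and 4 were lower in Ahr-/-, none higher, with a median log2 fold change of -0.58. *Tnfrsf9*, the receptor of 4-1BB ligand, had 379, 388 and 386 normalized counts in Ahr+/+ and 249, 247 and 229 in Ahr-/-, and so fell together with its ligand (log2 fold change -0.67, SE 0.079, edgeR adjusted p = 6.34e-05). *Rgmb*, which encodes a further partner of PD-L2, fell from 62.6 ± 3.72 to 25.3 ± 4.98 (-1.36, edgeR adjusted p = 0.000507). Both receptors of CD80 and CD86 fell as well. *Cd28* went from 78.5 ± 6.07 to 43.5 ± 5.41 (-0.86, edgeR adjusted p = 0.00434), and *Ctla4* from 113 ± 27.5 to 42.1 ± 18.5 (-1.33, edgeR adjusted p = 0.00406). *Pdcd1* (0.11, edgeR adjusted p = 0.711), *Icos* (-0.10, 0.854), *Tnfrsf4* (-0.01, 0.964) and *Cd27* (-0.49, 0.128) were not called, except that *Cd27* was called without Ahr-/- replicate 3 (-0.67, edgeR adjusted p = 0.0454). *Cd40lg*, the ligand of CD40, had at most 2 counts in any library and was not tested.

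Markers of T cells were present beside these receptors. The summed level of 9 T cell markers was 6023 to 6465 in Ahr+/+ and 6038 to 6956 in Ahr-/-. Most of it was *Lck*, at 5968 ± 139 and 6258 ± 453, so that the sum says little of the other markers. The highest of those, *Cd8a*, stood at 61.0 ± 24.9 and 59.7 ± 5.26. Of the 9, 1 was called, *Cd3e*, and was lower (log2 fold change -1.26, edgeR adjusted p = 0.00904). The part of T cells in the lower *Cd28* and *Ctla4* was not tested.

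Other molecules by which B and T cells touch moved in both directions. Of 23 listed, 21 were tested, with 6 higher and 4 lower, and a median log2 fold change of 0.15, which was -0.01 without Ahr+/+ replicate 1. *Havcr1*, which encodes TIM-1, a marker of regulatory B cells, showed the largest rise among the called genes, from 884 to 1915 normalized counts (log2 fold change 1.13, SE 0.088, edgeR adjusted p = 1.84e-06). The adhesion ligand *Icam1* (0.42, edgeR adjusted p = 1.27e-05), *Cd48* (0.36, 0.000167) and *Pvr* (0.27, 0.0152) were also higher. *Tnfsf14*, which encodes the TNF family ligand LIGHT (-1.07, edgeR adjusted p = 0.0121), *Cd24a* (-0.58, 1.03e-05), the inhibitory receptor *Btla* (-0.30, 0.0031) and *Slamf6* (-0.28, 0.0177) were lower. The calls of *Pvr*, *Tnfsf14* and *Slamf6* were lost without Ahr+/+ replicate 2 (edgeR adjusted p = 0.054, 0.0623 and 0.0717) and without Ahr+/+ replicate 3 (0.0687, 0.0503 and 0.0568), and those of *Pvr* and *Slamf6* also without Ahr-/- replicate 3 (0.0525 and 0.0586). The lower calls of the list numbered 2 without either of those Ahr+/+ libraries.

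The signalling genes downstream of CD40, which act through NF-κB, also moved in both directions. All 20 listed were tested, and 8 were higher and 3 lower, with a median log2 fold change of -0.0018. Without Ahr+/+ replicate 3, and likewise without Ahr-/- replicate 2, 5 were higher and 1 lower. The higher ones with the largest changes were *Tnfaip3*, an inhibitor of NF-κB signalling that NF-κB itself induces (0.48, edgeR adjusted p = 7.8e-06), *Bcl3* (0.39, 0.000971), the adaptor *Traf1* (0.28, 0.000109) and *Nfkb1* (0.20, 0.00143). *Nfkbia*, the NF-κB inhibitor IκBα, was lower (-0.21, edgeR adjusted p = 0.00521). The NF-κB subunit *Rela* (-0.15, edgeR adjusted p = 0.0485) and *Traf3* (-0.12, 0.0457) were also lower, but both calls were lost without any 1 library other than Ahr-/- replicate 3 (edgeR adjusted p from 0.0563 to 0.19 and from 0.0667 to 0.155), with scaling by library size alone (0.0911 and 0.096) and with the replicate number as a block (0.0728 and 0.058), and *Rela* also under the stricter filter on low counts (0.0502). Among 7 genes that handle these ligands or relay IL-4, *Irf4* was higher (0.28, edgeR adjusted p = 0.00335) and *Stat6*, the factor that IL-4 activates, was lower (-0.14, edgeR adjusted p = 0.0152; 0.0801 without Ahr-/- replicate 2).

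**Figure D5:**
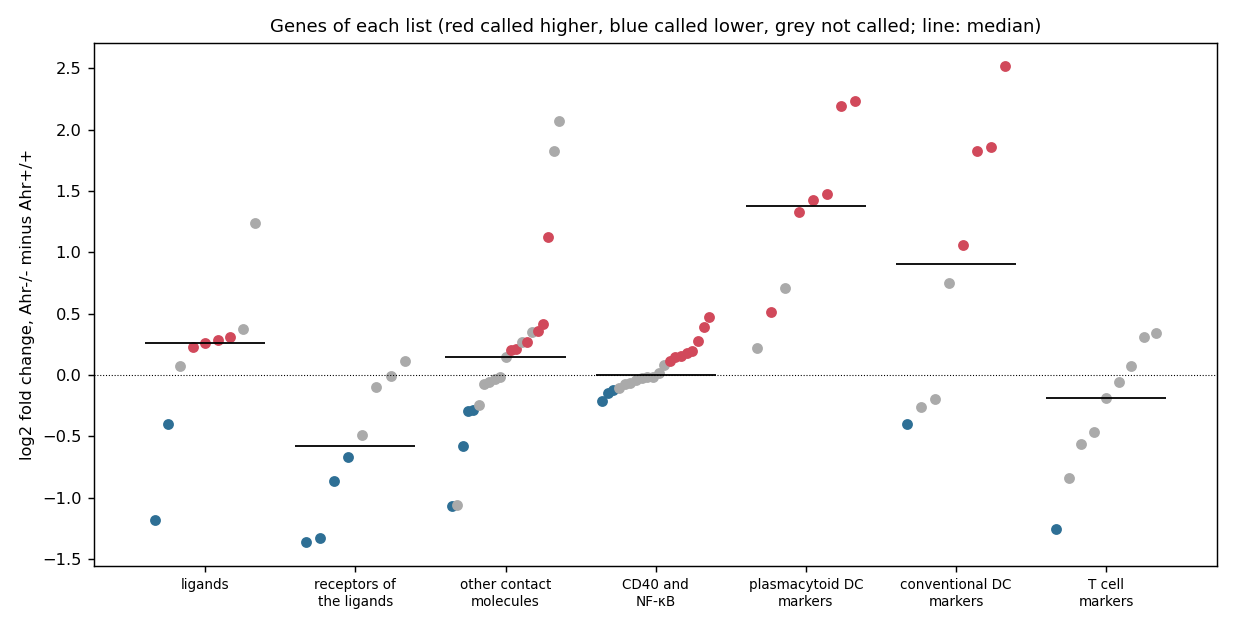
Log2 fold change, Ahr-/- against Ahr+/+, of the tested ligands and of each tested gene in some of the lists examined beside them. Drawn are the receptors, other contact molecules, CD40 and NF-κB genes, and markers of plasmacytoid and conventional dendritic cells and T cells. The remaining lists are not drawn. Red points were called higher by edgeR, blue points lower and grey points were not called, and the line marks each list's median. The receptors have a median of -0.58 with 4 called, all lower, the ligands and the other contact molecules hold called genes on both sides of 0, and the plasmacytoid dendritic cell markers have 6 called, all higher.

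Dendritic cells and macrophages also carry CD86, CD40, CD83 and the PD-1 ligands, so their markers are given beside these genes. Of 8 markers of plasmacytoid dendritic cells, 6 were higher in Ahr-/- and none lower, and their summed level was 2474 to 2955 in Ahr+/+ and 3198 to 4370 in Ahr-/- (*Siglech*, log2 fold change 2.23, edgeR adjusted p = 2.1e-07). Most of that sum was *Bst2*, at 1930 to 2338 in Ahr+/+ and 1975 to 2998 in Ahr-/-, which was not called (edgeR adjusted p = 0.233). Of 8 markers of conventional dendritic cells, 4 were higher and 1 lower, and the summed levels overlapped, at 820 to 937 in Ahr+/+ and 882 to 1073 in Ahr-/- (*Cd209a*, 2.52, edgeR adjusted p = 0.000117). *Zbtb46*, a transcription factor that defines conventional dendritic cells, was the lower one (-0.40, edgeR adjusted p = 0.00143). Without *Zbtb46* the other 7 summed to 284 to 357 in Ahr+/+ and 458 to 636 in Ahr-/-, which do not overlap.

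Of 7 macrophage markers, *Cd14* was called higher (log2 fold change 1.64, edgeR adjusted p = 0.0301) and *Emr1*, which encodes F4/80, was called lower (-3.60, edgeR adjusted p = 2.9e-09). Their summed level was 1191 to 1459 in Ahr+/+ and 594 to 1061 in Ahr-/-, while the median log2 fold change of the list was 0.60. The fall of the sum was that of *Emr1*, since the other 6 summed to 537 to 797 in Ahr+/+ and 559 to 998 in Ahr-/-, which overlap. The list changed with single libraries, as the call of *Cd14* was lost without Ahr+/+ replicate 1 or 3 or Ahr-/- replicate 1 or 2, 4 markers were higher without Ahr-/- replicate 3, and the median was 0.01 without Ahr-/- replicate 2, 0.37 without Ahr+/+ replicate 1, 0.94 without Ahr+/+ replicate 2 and 0.98 without Ahr-/- replicate 3.

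Among 6 markers of marginal zone B cells, a splenic subset known for high CD86, *Cr2* and *S1pr3* were higher (log2 fold change 0.25 and 0.42, edgeR adjusted p = 0.0434 and 0.00192) and *Cd9* and *Dtx1* lower (-1.17 and -1.75, edgeR adjusted p = 6.24e-06 and 7e-10). The call of *Cr2* was lost without any 1 library other than Ahr+/+ replicate 1 (edgeR adjusted p from 0.0603 to 0.165), in a robust fit (edgeR adjusted p = 0.232) and in DESeq2 (adjusted p = 0.185). The summed level was 33478 to 36602 in Ahr+/+ and 29881 to 32146 in Ahr-/-, but without *Dtx1* it was 22379 to 26561 in Ahr+/+ and 26962 to 28871 in Ahr-/-, the opposite direction. The genes left out of a sum, *Zbtb46*, *Emr1* and *Dtx1*, were chosen after their values were seen. Of 6 natural killer cell and neutrophil markers in the table, 2 were higher and none lower, with sums of 180 to 292 in Ahr+/+ and 225 to 503 in Ahr-/-. That count was 0 without Ahr+/+ replicate 1 or 3 or Ahr-/- replicate 1 or 2, 1 without Ahr+/+ replicate 2 and 5 without Ahr-/- replicate 3. It was also 1 with DESeq2 size factors, with the DESeq2 test and with the replicate number as a block. No marker of these lists had a total of 0. The part of such cells in the changes of the ligands was not tested.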

How the data were processed

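B cells of 3 Ahr+/+ and 3 Ahr-/- mice were purified from spleen by negative selection, and stranded mRNA libraries were sequenced, 1 per mouse. The deposited table of raw counts, 1 row per gene symbol, was used as the authors made it; the submitters' processing notes name TopHat2, HTSeq, DESeq and mm10, with roles and remaining settings not given in the sources used here. The authors' normalized counts, and their comparison table of fold changes and p-values, were not used. All 6 count columns matched a sample by name (0 unmapped). In R 4.3.3, genes whose counts summed to 10 or more across the 6 libraries were scaled by TMM and tested between genotypes, without covariates, with edgeR 4.0.16 (quasi-likelihood, prior count 0.125), and p-values were adjusted by Benjamini-Hochberg over all tested genes and called below 0.05. The fit was tested on simulated data. Replicates of a genotype differed beyond sampling noise. Intervals and floors made from counts cover counting error only.

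Gene positions and exon lengths came from GENCODE M21 (mm10), and promoters from RefSeq (GRCm38.p6), in which 4 of the 10 ligands matched. The ligands and the other lists were chosen with earlier results of these data known. Text names all 10 ligands, all receptors, of each other list at most the 4 genes with the largest called change in each direction and at least 10 normalized counts, of which not all are given for the marker lists, *Ahr*, and the 5 genes most like the ligand of lowest p. Alternatives were DESeq2 1.42.0 as test or for size factors, library size alone, other filters, a prior count of 2, a robust fit, a replicate block, a threshold of 0.01 and each library left out. The summed list of B cell markers is not reported here.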

Additional observations from a re-analysis of the deposited data

How the results depend on the processing

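Under each alternative run, the called ligands *Cd86*, *Tnfsf9*, *Cd83* and *Pdcd1lg2* kept their direction and their call. The log2 fold change ranged from -0.45 to -0.33 for *Cd86*, from -1.28 to -0.999 for *Tnfsf9*, from 0.28 to 0.35 for *Cd83* and from 0.24 to 0.33 for *Pdcd1lg2*. *Cd40* (0.18 to 0.28) lost its call without Ahr+/+ replicate 3 and without Ahr-/- replicate 2, with edgeR or DESeq2 adjusted p from 0.00345 to 0.0765 over its alternatives, and *Cd274* (0.20 to 0.31) without Ahr+/+ replicate 1 and without Ahr-/- replicate 2, with edgeR or DESeq2 adjusted p from 0.00416 to 0.0586. With one library left out, 4 to 6 ligands were called, 2 to 4 of them higher, while 1664 to 2601 genes were called in all. At an adjusted p below 0.01 there were 4 called ligands, of which 2 were higher. Of the ligands not called, *Cd80* ranged from 0.25 to 0.52 and *Tnfsf4* from 0.83 to 1.40, and *Icosl* reversed in sign on leaving out a library (-0.0203 to 0.16). The log2 ratio of *Pdcd1lg2* to *Cd274* reversed too (-0.0561 to 0.11). Among the receptors, *Icos* (-0.29 to 0.13), *Pdcd1* (-0.0857 to 0.29) and *Tnfrsf4* (-0.0700 to 0.0732) changed sign; *Tnfrsf4* was at 0.0156 with library size alone and at 0.0054 with the replicate block. The cause of these losses and reversals was not tested. Same-numbered libraries of the genotypes correlated at -0.14, 0.25 and -0.17, and the sample labels give no link beyond the number. Each value was taken as a deviation from its genotype mean. This ties the correlations to one another, so they cannot show whether such libraries shared a batch. With the number as a replicate block 2304 genes were called in place of 2453. The calls of all 9 tested ligands were the same (*Cd86*, -0.40, edgeR adjusted p = 0.000152). Not every library correlated best with its own number. The depth limits *Tnfsf4* and *Cd70*, which had at most 8 counts in any library.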
